A study of Mus musculus with 12 samples.

Results

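Testicans and small leucine-rich proteoglycans (SLRPs) are secreted proteins of the extracellular matrix, and the expression of 9 of their genes and of versican was followed in germ cells and somatic cells of the fetal mouse ovary. The genes were the testican genes Spock1, Spock2 and Spock3, the SLRP genes Dcn (decorin), Bgn (biglycan), Aspn (asporin), Lum (lumican), Fmod (fibromodulin) and Ogn (osteoglycin), and Vcan (versican), a large hyaluronan-binding proteoglycan that belongs to neither family. They were chosen by gene name among the 54532 genes of the count table, with the differences between treatments and between cell types in these same libraries already known, and no threshold was recorded. Every value below that comes from those comparisons is therefore a description of the genes, and none is independent evidence that the families respond.

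Ovaries were taken on embryonic day E15.5 from embryos carrying the Tg(Pou5f1-EGFP)2Mnn transgene, in which Pou5f1 regulatory sequence drives green fluorescent protein (GFP) in germ cells. Their dams had been injected once a day from E12.5 to E15.5, either with saline or with the synthetic glucocorticoid dexamethasone (dex) in a dose of 10 µg for each g of weight. GFP-positive cells were sorted as the germ cells and GFP-negative cells as the somatic cells. Bulk poly-A RNA was sequenced from 3 libraries of each of 4 groups, namely dex and saline germ cells and dex and saline somatic cells. All groups carried the transgene, and each library pooled ovaries from several litters. The somatic fraction was everything without GFP, so it held markers of stromal, pregranulosa, endothelial and blood cells in proportions that the sort did not fix. In such bulk samples a smaller number of cells of a type and less RNA per cell cannot be told apart.

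Testicans carry chondroitin and heparan sulfate chains on a core protein with a SPARC-like calcium-binding module and a thyroglobulin type domain, and they are best known from the brain, where they bind or modulate proteases. SLRPs have a core of leucine-rich repeats that binds collagen fibrils and controls their thickness and spacing, and several of them, decorin, biglycan and asporin among them, also bind transforming growth factor beta (TGF-beta). In the ovary these matrix genes are typical of stromal fibroblasts, and versican with hyaluronan forms a hydrated matrix around cells.

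The libraries held 14658503 to 18245507 counts, and 3 counts, taken as the floor of detection, equalled 0.169 to 0.196 CPM. CPM is the count scaled to library size, here with the trimmed mean of M values (TMM), and FPKM is the fragment count scaled to library size and to kilobases of exon. The summed CPM of 5 germ cell markers was 1991 to 2399 in germ cell libraries, 2.57 to 4.84 in saline somatic libraries and 14.9 to 18.6 in dex somatic libraries. Dazl made up most of that rise in somatic libraries, from 1.17 ± 0.193 to 12.6 ± 0.174 CPM (SD, n = 3), while Ddx4 and Sycp3 were not called and Pou5f1 and Dppa3 were too low to be tested. The summed CPM of 8 stromal markers was 18516 to 24212 in somatic libraries and 118 to 251 in germ cell libraries. Dex somatic replicate 3 stood apart, with a stromal sum 22.6% below the mean of the other 2 dex somatic libraries. Its summed pregranulosa markers were the highest of that group, at 728 CPM against 510 and 542 CPM. Its summed erythroid markers were the lowest, at 3268 CPM against 8076 and 16470 CPM. Summed macrophage markers were 24.8 to 64.0 CPM in dex and 101 to 141 CPM in saline somatic libraries, and 3 of 4 of these markers fell after dex. The part of these shifts in the results below was not tested, except where levels are given relative to the stromal markers.

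Promoter windows are shown for the 3 genes with the largest rises after dex in somatic cells. Each runs from 250 bases before to 50 bases after the gene's annotated start in RefSeq (build GRCm38.p6, plus strand). Capitals mark the bases from that start onward. The windows are Spock2 at chr10:60106007-60106306, Aspn at chr13:49544193-49544492 and Ogn at chr13:49607765-49608064.
Spock2: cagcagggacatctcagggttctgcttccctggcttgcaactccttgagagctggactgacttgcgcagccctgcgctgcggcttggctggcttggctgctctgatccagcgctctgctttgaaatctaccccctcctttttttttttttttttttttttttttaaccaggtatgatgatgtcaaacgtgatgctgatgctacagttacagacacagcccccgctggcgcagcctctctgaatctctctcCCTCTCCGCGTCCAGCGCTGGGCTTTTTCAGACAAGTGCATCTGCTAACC
Aspn: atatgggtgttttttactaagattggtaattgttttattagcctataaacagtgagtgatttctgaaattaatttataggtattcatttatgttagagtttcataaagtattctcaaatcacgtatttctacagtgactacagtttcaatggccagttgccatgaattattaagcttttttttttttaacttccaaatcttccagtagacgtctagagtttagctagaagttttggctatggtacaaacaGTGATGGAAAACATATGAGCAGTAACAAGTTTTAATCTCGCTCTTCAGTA
Ogn: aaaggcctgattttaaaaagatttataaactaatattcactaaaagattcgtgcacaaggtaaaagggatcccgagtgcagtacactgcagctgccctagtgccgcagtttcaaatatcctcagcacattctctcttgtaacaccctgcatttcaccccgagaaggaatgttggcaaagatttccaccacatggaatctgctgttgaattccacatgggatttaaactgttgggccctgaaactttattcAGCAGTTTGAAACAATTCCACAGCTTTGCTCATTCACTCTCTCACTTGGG
The annotated start of the count table lay 38 bases from the RefSeq start for Spock2 and 31 bases from it for Ogn, and was the same base for Aspn. GC content was 52.3% in the Spock2 window, 42.3% in the Ogn window and 31% in the Aspn window, against a median of 52.7% over 32851 windows of all genes.

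Short motifs were searched on both strands of the windows of 8 of the 10 genes (9 windows, since Spock3 has 2 starts). The exact palindrome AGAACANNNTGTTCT of the glucocorticoid response element, which reads the same on both strands, was in none of them and in 0.00913% of all windows. Only this exact string was searched, and it is so rare that its absence says nothing about these genes. Its hexamer AGAACA occurred in 1 of the 9 windows, that of Bgn, as TGTTCT 241 bases before the start, and in 19.0% of all windows. The TATA box core TATAAA occurred in 2 windows, those of Aspn and Ogn, and in 13.6% of all windows. Its matches began 207 and 178 bases before the start in Aspn and 229 and 227 bases before it in Ogn. These matches describe the letters of the windows, and binding of the receptor was not measured here.

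Per unit of exon length, Lum, Dcn and Bgn led the 10 genes in somatic cells. In saline somatic libraries the order of mean FPKM was Lum 227 ± 15.2, Dcn 174 ± 18.3, Bgn 123 ± 6.39, Vcan 34.9 ± 3.51, Ogn 19.0 ± 1.12, Fmod 16.5 ± 2.07, Spock2 9.46 ± 0.152, Aspn 6.22 ± 0.561, Spock3 2.90 ± 0.531 and Spock1 0.392 ± 0.0736 (SD, n = 3). Ogn and Fmod were the one pair of neighbours in this order whose libraries overlapped. After dex the order changed in the middle: Ogn rose to 45.7 ± 9.06 FPKM, Spock2 to 39.1 ± 4.84 and Aspn to 25.6 ± 4.92, while Vcan was at 38.8 ± 2.28 and Fmod at 13.55 ± 2.43. Ogn, Spock2 and Vcan then overlapped with their neighbours, as did Lum, Dcn and Bgn at the top. Spock2 thus moved from a level below Vcan and Ogn to one within their range.

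**Figure D1:**
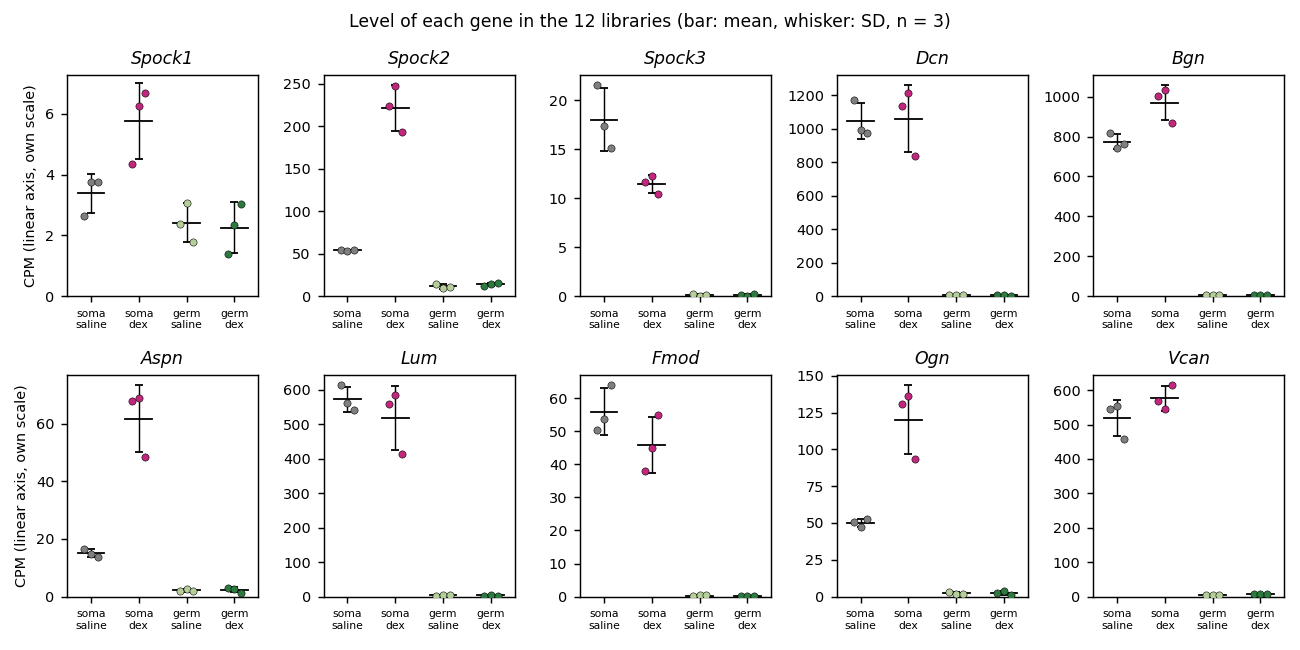
Level of each gene in CPM, on a linear axis of its own, in the 12 libraries; points are libraries, horizontal bars the mean and whiskers the SD of 3 libraries. Spock2, Aspn and Ogn stand higher in all dex somatic libraries than in any saline somatic library, and 9 of the 10 genes are far lower in germ cells than in somatic cells, Spock1 being the exception.

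Dex was compared with saline in somatic cells to ask which of these genes changed with glucocorticoid exposure. By edgeR's quasi-likelihood test over 16556 genes, 4 of the 10 were called higher (adjusted p of at most 0.05) and 1 lower, where 4.81% of all genes tested were called higher and 3.36% lower. The median log2 fold change of the 10 genes was 0.24, against 0.00014 over all genes tested. Because the genes were picked with this contrast in view, nothing is read from the difference between those shares. The called genes were Spock2, Aspn, Ogn and Bgn (higher) and Spock3 (lower), so calls among the testicans went in both directions.

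The 3 testican genes went different ways. Spock2 (ENSMUSG00000058297, chromosome 10, 60106219 to 60135198, plus strand) was at 224, 247 and 194 CPM in the dex somatic libraries and at 54.5, 53.2 and 53.9 CPM in the saline ones. The SD of the saline libraries was 0.624 CPM, and every dex library was above all of them. The log2 fold change was 2.05 (SE 0.08, 4.13-fold, edgeR adjusted p = 1.00e-08), which ranked 63 from the top of all genes tested. Its range was 1.95 to 2.13 over all alternatives, the lowest value being that without dex replicate 2.

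Spock3 (ENSMUSG00000054162, chromosome 8, 62951009 to 63357103, plus strand), whose product is an inhibitor of membrane-bound matrix metalloproteinases, was the gene that fell. It was at 11.6, 12.3 and 10.5 CPM after dex and 21.6, 17.4 and 15.2 CPM after saline, without overlap. The log2 fold change was -0.65 (SE 0.15, edgeR adjusted p = 0.0168), and the call was lost without saline replicate 1 (adjusted p = 0.0965) or saline replicate 2 (adjusted p = 0.0522). Spock1 (ENSMUSG00000056222, chromosome 13, 57421195 to 57908332, minus strand) was low, at 4.36, 6.25 and 6.69 CPM after dex and 2.63, 3.74 and 3.76 CPM after saline, on 42 to 114 counts per library. These libraries did not overlap either, but the log2 difference of 0.78 (SE 0.25) had an edgeR adjusted p of 0.0775 and was called only in the fit without dex replicate 1 (adjusted p = 0.0395), in that with no low-count filter (0.0414) and in that with a replicate block (0.0469).

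Among the class I SLRPs, Aspn changed most. This gene (ENSMUSG00000021388, chromosome 13, 49544443 to 49567565, plus strand) encodes a collagen-binding protein with an aspartate-rich stretch that restrains TGF-beta signalling. It was at 68.0, 68.9 and 48.3 CPM in dex somatic libraries and at 16.5, 14.9 and 13.9 CPM in saline ones. Replicate 3 was the lowest of the dex libraries and still far above the highest saline library. The log2 fold change was 2.04 (SE 0.13, 4.12-fold, edgeR adjusted p = 5.95e-07), which ranked 65 from the top.

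Bgn and Dcn, the close relatives of Aspn and among the most abundant of the genes, moved little. Bgn (ENSMUSG00000031375, chromosome X, 73483602 to 73495933, plus strand) was at 1004, 1035 and 869 CPM after dex and 816, 744 and 764 CPM after saline. The libraries did not overlap, and the log2 fold change was 0.33 (SE 0.07, 1.26-fold, edgeR adjusted p = 0.0135). The call was lost without dex replicate 1 (adjusted p = 0.0542), dex replicate 2 (0.0800), saline replicate 2 (0.0829) or saline replicate 3 (0.0622). Dcn (ENSMUSG00000019929, chromosome 10, 97479609 to 97518143, plus strand) was at 1135, 1213 and 834 CPM after dex and 1169, 995 and 975 CPM after saline, so the groups overlapped. Its log2 difference was 0.03 (SE 0.12, edgeR adjusted p = 0.929).

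The class II genes Lum and Fmod, which encode keratan sulfate proteoglycans of collagen fibrils, were not called. Lum (ENSMUSG00000036446, chromosome 10, 97565128 to 97572703, plus strand) was at 560, 586 and 413 CPM after dex and 613, 561 and 543 CPM after saline, a log2 difference of -0.13 (SE 0.11, edgeR adjusted p = 0.540). Fmod (ENSMUSG00000041559, chromosome 1, 134037254 to 134048277, plus strand) was at 38.0, 45.0 and 54.9 CPM against 50.4, 53.8 and 64.0 CPM, a log2 difference of -0.28 (SE 0.12, edgeR adjusted p = 0.219). Both groups of libraries overlapped for both genes. Fmod was called lower without dex replicate 3 (log2 difference -0.43, adjusted p = 0.0134), with no low-count filter (0.0242) and with a replicate block (0.0304).

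Ogn, the class III member, also known as mimecan, rose. The gene (ENSMUSG00000021390, chromosome 13, 49608046 to 49624501, plus strand) was at 131, 136 and 93.3 CPM in dex somatic libraries and at 50.9, 47.0 and 52.4 CPM in saline ones. All dex libraries were above all saline libraries, with replicate 3 again the lowest of the dex group. The log2 fold change was 1.27 (SE 0.12, 2.41-fold, edgeR adjusted p = 1.40e-05), which ranked 220 from the top.

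Vcan (ENSMUSG00000021614, chromosome 13, 89655312 to 89742509, minus strand) was at 570, 544 and 614 CPM after dex and 545, 554 and 459 CPM after saline. These values overlapped, and the log2 difference of 0.16 (SE 0.08) was not called (edgeR adjusted p = 0.295).

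**Figure D2:**
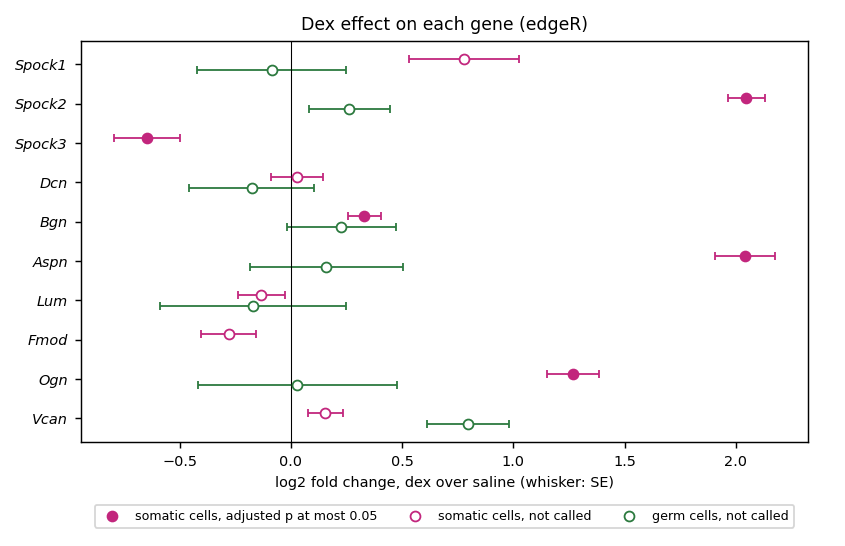
Log2 fold change of dex over saline for each gene in somatic cells and in germ cells, with whiskers of 1 SE; filled points were called at an adjusted p of at most 0.05 and open points were not. Spock2 and Aspn lie near 2 and Ogn at 1.27 in somatic cells, whereas no germ cell value was called, and Spock3 and Fmod had too few germ cell counts to be tested.

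Since dex somatic replicate 3 held less stromal RNA, each gene was also set against the stromal markers of its own library, an alternative chosen after seeing the data and given without a test. In replicate 3, Ogn was 30.2% below the mean of the other 2 dex libraries, Aspn 29.4%, Dcn 28.9%, Lum 27.9%, Spock2 17.8%, Bgn 14.7% and Spock3 12.8%, beside the 22.6% of the stromal sum. Fmod, Spock1 and Vcan were higher in replicate 3 than in the other 2.

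Relative to 1000 CPM of the summed stromal markers, Spock2 was at 9.47, 10.2 and 10.5 in the dex libraries and 2.50, 2.72 and 2.48 in the saline ones. Aspn was at 2.88, 2.85 and 2.61 against 0.758, 0.758 and 0.639 on the same scale, and Ogn at 5.54, 5.63 and 5.04 against 2.34, 2.40 and 2.41. The dex libraries of these 3 genes lay closer together on this scale than in CPM, and none overlapped with saline. The log2 difference in this ratio was 1.97 for Spock2, 1.95 for Aspn, 1.18 for Ogn, 0.26 for Bgn and -0.71 for Spock3, in each case with the sign of the unscaled value. It was 0.70 for Spock1, 0.09 for Vcan, -0.36 for Fmod and -0.22 for Lum, also with the sign of the unscaled value. Lum, whose libraries overlapped in CPM, was at 23.7, 24.2 and 22.3 after dex and 28.2, 28.6 and 25.0 after saline on this scale, without overlap. For Dcn the log2 difference was -0.06, opposite in sign to the unscaled 0.03. Among the stromal markers themselves, Pdgfra rose after dex (log2 fold change 0.62).

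**Figure D3:**
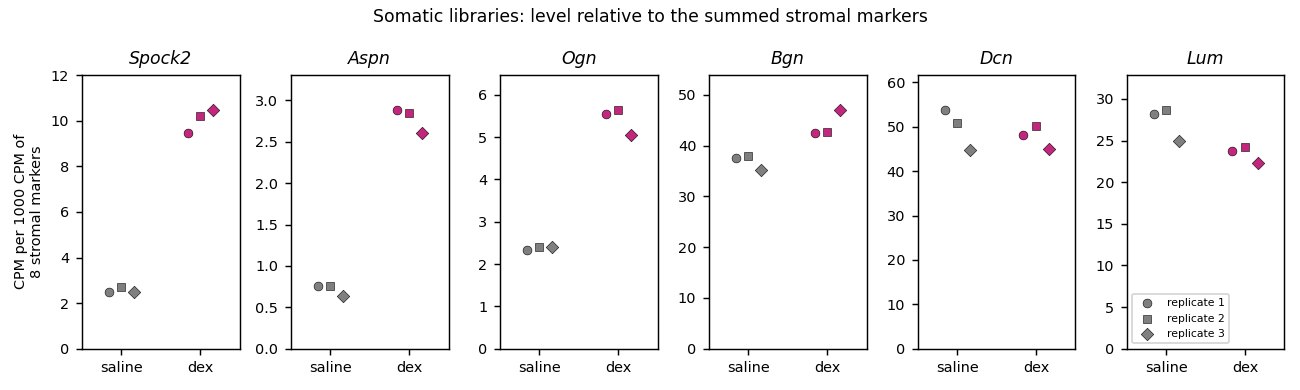
Level of 6 genes in the somatic libraries per 1000 CPM of 8 summed stromal markers, on linear axes from 0; each point is 1 library and its shape gives the replicate number. Spock2, Aspn and Ogn separate dex from saline, and Bgn is at 42.5 to 47.0 after dex and 35.1 to 38.0 after saline. Lum is lower after dex, at 22.3 to 24.2 against 25.0 to 28.6, and Dcn overlaps between treatments.

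Germ cells and somatic cells were compared in the saline libraries to place the genes without treatment. By edgeR, 9 of the 10 were lower in germ cells, in a comparison in which 42.9% of 17941 genes were called lower. Expressed as a percentage of the somatic mean, the germ cell mean was 0.614% for Dcn, 0.608% for Bgn, 0.631% for Lum, 0.562% for Fmod and 0.891% for Vcan, next to a median of 0.783% (0.582% to 7.44%) for the 8 stromal markers. Dcn, Bgn, Lum and Vcan lay within the range of these markers, and Fmod, on 1 to 9 counts per saline germ cell library, just below it. The source of these germ cell reads was not tested. The corresponding log2 differences were -7.34 for Dcn, -7.36 for Bgn, -7.29 for Lum, -7.41 for Fmod and -6.81 for Vcan.

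Spock3 had 0 to 3 counts in every germ cell library, at the floor of detection, and was at least 93.3-fold higher in saline somatic cells and at least 58.5-fold higher in dex somatic cells (against 3 counts in the germ cell library with the highest floor). The other testicans held more of their level in germ cells. Spock2 was at 14.7, 9.39 and 11.3 CPM in saline germ cells, 21.9% of its somatic mean (log2 difference -2.20, SE 0.13, edgeR adjusted p = 6.81e-10). Per unit length it was the highest of the 10 genes there, at 2.14 ± 0.508 FPKM, with libraries that overlapped those of Lum at 1.47 ± 0.598 FPKM (SD, n = 3). Spock1 was at 2.39, 3.07 and 1.80 CPM in saline germ cells, 71.6% of its somatic mean, and the log2 difference of -0.49 (SE 0.29) was not called (edgeR adjusted p = 0.133).

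Aspn and Ogn also stood above the other SLRPs in this share, at 14.2% and 4.51%. Both genes lie wholly inside Cenpp, a centromere protein gene on the opposite strand. Cenpp was at 38.3 to 49.0 CPM in saline germ cells and 3.51 to 3.82 CPM in saline somatic cells, which is the reverse of the order of Aspn and Ogn. Whether the counting used strand is not given in the sources used here, so germ cell reads of Aspn, at 1.87, 2.66 and 1.91 CPM, and of Ogn, at 3.03, 2.07 and 1.68 CPM, cannot be told apart from reads of Cenpp. In somatic cells Cenpp reached 4.23 to 7.93 CPM after dex, with a log2 difference of 0.71 (SE 0.25) that was not called (edgeR adjusted p = 0.110). The lowest dex somatic values were 48.3 CPM for Aspn and 93.3 CPM for Ogn. The part of Cenpp reads in the somatic values of Aspn and Ogn was not tested. Vcan overlaps the antisense gene Gm4117, which stayed between 1.17 and 3.49 CPM in somatic libraries.

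In germ cells, none of the 8 genes that passed the low-count filter was called after dex by edgeR or by DESeq2, where 0.208% of 16857 genes were called by edgeR, and 1 had an unadjusted p under 0.05. That gene was Vcan, at 7.65, 8.62 and 7.58 CPM after dex and 4.0, 4.96 and 4.93 CPM after saline, on 62 to 133 counts per library. The libraries did not overlap, and the log2 difference was 0.80 (SE 0.18, edgeR adjusted p = 0.141, or 0.0424 with no low-count filter). Summed stromal markers in the same germ cell libraries were 144 to 251 CPM after dex and 118 to 194 CPM after saline, and summed pregranulosa markers 17.9 to 76.4 and 26.3 to 50.5 CPM. The part of somatic RNA in the Vcan value was not tested.

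Spock2 in germ cells was at 12.2, 13.9 and 15.9 CPM after dex, overlapping with saline, a log2 difference of 0.26 (SE 0.18, edgeR adjusted p = 0.616). Aspn was at 2.94, 2.79 and 1.37 CPM after dex (log2 difference 0.16, SE 0.34) and Ogn at 2.42, 3.56 and 0.84 CPM (0.03, SE 0.45), both overlapping with saline. Dcn, Lum, Bgn and Spock1 had log2 differences of -0.18, -0.17, 0.23 and -0.09, each smaller than its SE. The libraries of Dcn, Lum and Bgn lay between 1.61 and 8.16 CPM in germ cells. Fmod, at 1 to 9 counts per germ cell library, and Spock3 were not tested.

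The contrast between cell types in the response to dex was tested as the germ cell effect minus the somatic effect over all 12 libraries. This difference was called for 2 of the 10 genes, both lower in germ cells, where 1.13% of 19390 genes were called lower. For Spock2 it was -1.79 on the log2 scale (SE 0.18, edgeR adjusted p = 4.59e-05), and for Aspn -1.91 (SE 0.34, edgeR adjusted p = 0.00766). The germ cell mean of Spock2 was 21.9% of the somatic mean in saline and 6.30% in dex, and that of Aspn 14.2% and 3.83%. For Ogn the difference was -1.26 (SE 0.42) and not called (edgeR adjusted p = 0.157), although its somatic rise was called and its germ cell value was not. Vcan had the opposite sign, 0.63 (SE 0.15, edgeR adjusted p = 0.0513). It was called by DESeq2 (adjusted p = 0.0182), with no low-count filter (0.00286) and without dex somatic replicate 3 (0.0399) or saline somatic replicate 3 (0.0249).

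Several SLRP genes lie next to each other, and their neighbours were examined in somatic cells. On chromosome 13, Ecm2, Aspn, Omd and Ogn follow one another on the plus strand within gaps of 11653, 14896 and 15223 bases. Aspn and Ogn rose, while Ecm2, an SLRP-related matrix gene with 2.18 ± 0.303 CPM after saline and 3.37 ± 1.19 CPM after dex, had a log2 difference of 0.64 (SE 0.32, edgeR adjusted p = 0.276). Omd (osteomodulin), between the 2 genes that rose, was at 0.0587 to 1.52 CPM in somatic libraries and was not tested.

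On chromosome 10, Dcn, Lum, Kera and Epyc lie in a row with gaps of 46984, 34175 and 30375 bases. Kera, which encodes the corneal keratan sulfate proteoglycan keratocan, fell from 11.8 ± 1.27 CPM to 4.59 ± 0.942 CPM, a log2 fold change of -1.35 (SE 0.19, edgeR adjusted p = 0.000456). Its neighbours Lum and Epyc were not called, and Epyc was at 1.77 ± 0.425 CPM in saline libraries. On chromosome 1, Optc, Prelp and Fmod were all uncalled, with log2 differences of -0.75, 0.17 and -0.28. The called genes thus lay beside genes that were not called in 2 of the 3 rows.

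**Figure D4:**
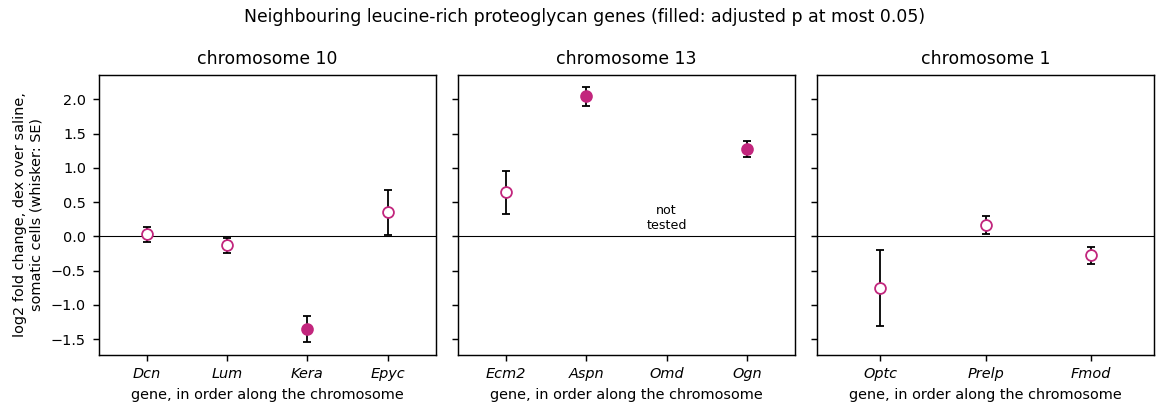
Log2 fold change of dex over saline in somatic cells for neighbouring SLRP genes in their order along 3 chromosomes, with whiskers of 1 SE; filled points were called at an adjusted p of at most 0.05, and spacing is not to scale. Aspn and Ogn rose on chromosome 13, Kera fell beside uncalled Lum and Dcn on chromosome 10, and no gene was called on chromosome 1.

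Genes of the same families and of the pathways around them were counted in somatic cells from lists that, like the 10 genes, were drawn up with earlier results known. Each count is to be read beside the 4.81% of all genes tested that were called higher and the 3.36% called lower, and no list was tested against the rest. Of 9 further SLRP genes tested, 0 were called higher and 1 lower (Kera), with a median log2 fold change of 0.17. Tsku and Podn, the most abundant of those not called, had log2 differences of 0.18 and 0.07. Of 5 genes of the SPARC family, to which the calcium-binding module of the testicans is related, 2 rose. Smoc2 went from 221 ± 12.6 to 371 ± 26.9 CPM (log2 fold change 0.75, SE 0.07) and Sparcl1, the gene of hevin, from 666 ± 14.1 to 976 ± 98.3 CPM (0.56, SE 0.07). Sparc itself had a log2 difference of 0.04 and Fstl1 one of 0.21 (edgeR adjusted p = 0.0508).

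Genes around versican were counted in the same way. Of 10 other hyalectan, link protein and hyaluronan genes tested, 0 were called by edgeR or by DESeq2 and 2 had an unadjusted p under 0.05 by edgeR. Has2, a hyaluronan synthase gene, and Hmmr, a hyaluronan receptor gene, those of the 10 with the highest somatic CPM, had log2 differences of -0.13 and -0.09. Of 6 genes of versican-cleaving ADAMTS proteases, 3 rose and 0 fell. Adamts9 had 171 ± 6.23 CPM after saline and 359 ± 55.5 CPM after dex (log2 fold change 1.08, SE 0.09, edgeR adjusted p = 9.34e-06), Adamts5 had a log2 fold change of 0.51 and Adamts1 one of 0.46. Adamts15 and Adamts4, at 0.14 and 0.33, were not called.

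Of 14 heparan sulfate proteoglycan genes tested, 4 rose and 1 fell. Srgn, the serglycin gene of secretory granules, had a log2 fold change of 1.27, Tgfbr3, the gene of the TGF-beta co-receptor betaglycan, one of 0.71, and the glypican genes Gpc6 and Gpc2 values of 0.48 and -0.54. Gpc3 and Hspg2, the most abundant, were not called at 0.15 and 0.12. Of 21 genes for the glycosaminoglycan linker and for chondroitin or dermatan sulfate, 2 rose, the sulfotransferase genes Chst3 (0.52) and Chst15 (0.50), and the chain-polymerizing enzyme genes Chpf and Chsy1 were not called at 0.02 and 0.04. Of 7 genes of TGF-beta ligands and receptors and their latent binding proteins, 1 rose, Tgfb2, at 0.28, and the latent binding protein genes Ltbp3 and Ltbp1 were not called at -0.17 and -0.07. In germ cells, 0 of the 70 genes of these 7 lists that were tested were called by edgeR or by DESeq2. Of all 16857 genes tested there, 0.208% were called by edgeR. By edgeR 14 of the 70 had an unadjusted p under 0.05. The share of all genes under that limit was not computed, so nothing is read from such counts. The difference between cell types was called by edgeR for 1 of 78, the glypican gene Gpc3 (-0.44, SE 0.10, edgeR adjusted p = 0.0351). For comparison, 1.13% of 19390 genes were called lower in germ cells.

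The genes most like each member over the 12 libraries were found by the root mean squared difference of log2(CPM + 0.5), each gene centred on its own mean, among 15197 genes. This added 0.5 shrinks differences of low genes. Dcn was nearest to the collagen genes Col1a1 (0.149) and Col1a2 (0.158), and Lum to Col1a1 (0.189) and Dcn (0.190). Bgn was nearest to Mmp2 (0.167), a gelatinase gene, and to Sparcl1 (0.175), and Vcan to Acta2 (0.162) and Mfap2 (0.209).

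Nearest distances were larger for Spock2, Aspn and Ogn than for those 4 genes. For Spock2 they were Fam107a (0.233), with a somatic log2 fold change of 1.96, and C530044C16Rik (0.255), with 2.06, although both were at or near 0 in germ cells. For Aspn they were Ppp1r14a (0.280) and Lcn2 (0.280), with 1.57 and 1.86, and for Ogn P3h2 (0.340) and Igfbp7 (0.351), with 1.23 and 0.91. Fmod was nearest to AW551984 (0.215) and Hoxc8 (0.230), Spock3 to Mir99ahg (0.181) and Kcna6 (0.218), and Spock1 to Peak1 (0.260) and Gm16861 (0.261). These distances describe the profiles and carry no test.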

How the data were processed

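Bulk poly-A RNA-seq libraries of sorted germ and somatic cells were analysed as deposited. Per the labels, reads were aligned to mm10 with HISAT2 2.0.5 and counted with featureCounts 1.5.0-p3, and the authors deposited whole-number counts per gene and FPKM values computed from them. Strand and multi-mapping settings are not given in the sources used here. The authors' own comparison tables (DESeq2 1.20.0 fold changes and p-values) were not used. Counts were tested with edgeR 4.0.16 in R 4.3.3 (quasi-likelihood, TMM, filterByExpr, Benjamini-Hochberg over all genes, threshold 0.05, two-sided, no covariate). Dex was compared with saline within each cell type, then between cell types, and germ with somatic cells among saline libraries. SE is that implied by the F statistic. CPM used TMM factors over all 12 libraries. Levels of different genes were compared in FPKM. The scripts were tested on simulated data. Alternatives were DESeq2 1.42.0, median-of-ratios scaling, no low-count filter, a replicate block, each library left out, and scaling to stromal markers. All 10 genes were named. From each related list up to 4 called genes of largest change and the 2 most abundant uncalled ones were named, with the 2 genes nearest each member. Ecm2, Omd, Epyc, Optc, Prelp, Cenpp and Gm4117 were named for their position, and markers and replicate 3 after their values were seen. The members and lists were chosen with earlier results of these data known. Replicates are labelled biological, and each pooled several litters. Floors cover counting error only. The result of 1 stromal marker is not reported here.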

Additional observations from a re-analysis of the deposited data

Results flagged for a closer look

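For 2 of the 10 genes the dex effect differed between germ cells and somatic cells by edgeR's test of the difference itself over all 12 libraries. For Spock2 the germ cell effect minus the somatic effect was -1.79 on the log2 scale (SE 0.18, edgeR adjusted p = 4.59e-05), and over all alternatives it ranged from -1.93 to -1.59, with adjusted p of at most 0.000297. All 3 dex somatic libraries lay above all saline ones, while the germ cell groups overlapped. For Aspn the difference was -1.91 (SE 0.34, edgeR adjusted p = 0.00766), with a range of -2.10 to -1.60 and adjusted p of at most 0.0309. The germ cell level of Aspn, at 23 to 45 counts per library, could not be told apart from reads of Cenpp on the opposite strand. Both genes were chosen with these comparisons already known.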

How the results depend on the processing

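Spock2, Aspn and Ogn kept their somatic rise and its call under every alternative with a test, as did the cell type difference of the 9 genes called lower in germ cells. The count of the 10 genes called in somatic cells was 5, with 3 to 6 when 1 library was left out (3 without saline replicate 2, 6 without dex replicate 3). In germ cells 0 were called, and 1 with no low-count filter. For the difference 2 were called, and 4 with no low-count filter (Ogn and Vcan added). Over all genes, leaving out 1 library gave 754 to 1881 called in somatic cells (1354 with all libraries), 17 to 81 in germ cells (35) and 143 to 384 for the difference (314). The lowest somatic count came without saline replicate 3, and the highest without dex replicate 3. With no low-count filter 420 genes were called in germ cells and 727 for the difference, and with DESeq2 158 and 622. The cause of these differences was not tested. P-values without the filter could be far smaller at a like effect. For Spock2 in somatic cells the edgeR p was 4.59e-158 (SE 0.076), against 2.89e-12 (SE 0.085) in the main fit. Calls made only in the fit without the filter thus carry little weight.

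Signs reversed for uncalled values near 0 when 1 library was left out. In somatic cells the log2 difference ranged from -0.0904 to 0.17 for Dcn and from -0.24 to 0.0066 for Lum. In germ cells it ranged from -0.0581 to 0.44 for Aspn, -0.038 to 0.38 for Bgn, -0.55 to 0.072 for Dcn, -0.76 to 0.16 for Lum, -0.45 to 0.43 for Ogn and -0.36 to 0.15 for Spock1. The difference between cell types ranged from -0.36 to 0.049 for Bgn, -0.58 to 0.0421 for Dcn, -0.74 to 0.27 for Fmod and -0.64 to 0.28 for Lum.

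Whether replicate numbers pair dex with saline libraries of a cell type was not settled. The same-numbered deviations correlated between -0.0093 and 0.132, the highest being that of germ cell replicate 1. With a replicate block 7 of the 10 genes were called in somatic cells (Spock1 and Fmod added), and Ogn in germ cells was at -0.0819. Over all genes the block gave 1520 calls in somatic cells and 49 in germ cells. For the difference the block instead joined germ and somatic libraries of the same treatment and number, and 222 genes were called. Germ and somatic libraries of 1 treatment each correlated best with their own number (0.0553 to 0.0991), a hint from the data only. Germ cell values of the SLRPs rest on at most 131 counts per library, which limits the changes that could be detected there.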
